A study of Mus musculus with 6 samples.

Results

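The hnRNP D subfamily of RNA-binding proteins was examined through its genes Hnrnpdl (hnRNP D-like, DL), Hnrnpd (hnRNP D, also called AUF1) and Hnrnpab (hnRNP A/B, also called CBF-A). These 3 genes were matched by symbol among the 52550 genes of the count table, and 8 of the 40961 splicing events were listed for them, 2 for Hnrnpdl, 5 for Hnrnpd and 1 for Hnrnpab. All 8 were skipped exons. Hippocampal RNA was sequenced as 3 control libraries and 3 libraries of the group that the study calls L-DL KD, which are called KD-labelled here. The mice were male wild-type C57BL/6 J mice, given adeno-associated virus in the CA1 areas on both sides when 8 weeks old. The L-DL KD virus carried 4 L-DL shRNAs in tandem under H1 promoters, beside a CamkIIα promoter that drives zsGreen in neurons, and the control virus carried control shRNA. The study's methods give the control virus a higher titre than the L-DL shRNA virus, in the same volume. Titre and shRNA thus cannot be told apart between the groups. The sample labels call the controls wild type, and they call the other group hnRNPDL-KD in the titles but hnRNP DL-/- in the descriptions, whereas the study's methods describe a knockdown by shRNA. An H1 promoter is not restricted to a cell type, and the dissected hippocampus holds cells outside the injected areas. It is not stated whether a library is 1 mouse or a pool, so p-values measure the spread between these libraries.

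Proteins of this subfamily carry a pair of RNA recognition motifs (RRMs), which bind single-stranded RNA, followed by a tail rich in glycine and tyrosine that mediates contacts with other proteins. hnRNP D binds AU-rich elements in mRNA and is known for control of mRNA stability, hnRNP A/B takes part in transport of mRNA in neurons, and hnRNP D-like acts in transcription and splicing. Many RNA-binding proteins limit their own level by a poison exon, an alternative exon that leaves the stop codon well upstream of an exon junction and thereby marks the mRNA for nonsense-mediated decay (NMD). The study asked how loss of L-DL, the long isoform of hnRNP D-like, changes RNA splicing in the hippocampus.

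The 3 genes shared an exon plan in the GENCODE M21 annotation (GRCm38), and all 3 lay on the minus strand. Hnrnpdl (ENSMUSG00000029328) lay at chr5:100033577-100039664, Hnrnpd (ENSMUSG00000000568) at chr5:99955935-99978938 and Hnrnpab (ENSMUSG00000020358) at chr11:51600100-51606847. The first full exon of the RRM region was 169 nt long in each gene, and the next were 162, 162 and 159 nt and then 132, 132 and 132 nt in Hnrnpdl, Hnrnpd and Hnrnpab. Hnrnpd alone had a 57 nt exon 2 before this run.

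**Figure D1:**
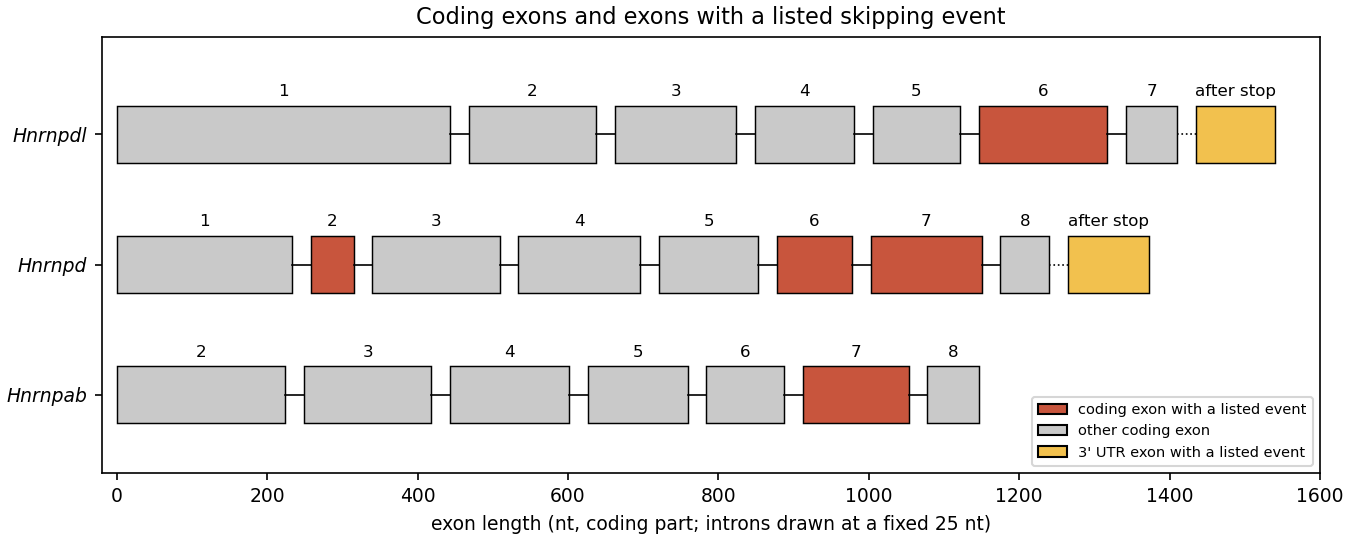
Exons of Hnrnpdl-201, Hnrnpd-211 and Hnrnpab-203 drawn to scale, with the coding length of each exon in nt along the horizontal axis, introns at a fixed width and the exon number above each box. Red boxes are coding exons with a listed skipping event, grey boxes are other coding exons, and yellow boxes are exons after the stop codon with a listed event, 105 nt in Hnrnpdl and 107 nt in Hnrnpd. The red penultimate coding exon stands in the same place in all 3 genes.

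In each gene the exon before the last coding exon was alternative, and its length was a multiple of 3, so that skipping it keeps the reading frame. It was exon 6 of Hnrnpdl (171 nt, chr5:100036481-100036651), exon 7 of Hnrnpd (147 nt, chr5:99963731-99963877) and exon 7 of Hnrnpab (141 nt, chr11:51601750-51601890). The sequences are shown because this exon encodes part of the tail and was the alternative exon common to the 3 genes. They are given 5′ to 3′ on the RNA strand, taken from GENCODE M21 transcripts, with capitals for TATGG or TACGG, letters that read in frame give a tyrosine codon followed by a glycine codon.

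Hnrnpdl exon 6: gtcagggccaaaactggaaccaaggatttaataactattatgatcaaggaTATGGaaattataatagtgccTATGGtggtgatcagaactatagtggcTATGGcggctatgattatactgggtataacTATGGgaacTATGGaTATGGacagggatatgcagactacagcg
Hnrnpd exon 7: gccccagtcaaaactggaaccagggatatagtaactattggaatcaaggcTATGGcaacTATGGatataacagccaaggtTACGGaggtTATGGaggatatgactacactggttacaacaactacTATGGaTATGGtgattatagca
Hnrnpab exon 7: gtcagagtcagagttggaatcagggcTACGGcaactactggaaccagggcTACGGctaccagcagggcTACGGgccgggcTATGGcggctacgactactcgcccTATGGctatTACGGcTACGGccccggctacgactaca

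Searched on the RNA strand only, TATGG or TACGG occurred 6 times in Hnrnpdl exon 6, 6 times in Hnrnpd exon 7 and 7 times in Hnrnpab exon 7. Of 27977 internal exons of coding transcripts between 141 and 171 nt long, 4305 (15.4%) held the letters at least once and 5 (0.0179%) held them at least 6 times, these 3 exons included. The Hnrnpdl and Hnrnpd exons were identical at 106 of 144 aligned bases (73.6%), the Hnrnpd and Hnrnpab exons at 92 of 132 (69.7%) and the Hnrnpdl and Hnrnpab exons at 93 of 138 (67.4%). The Hnrnpab exon was richer in G and C (61.0%) than those of Hnrnpdl (40.4%) and Hnrnpd (41.5%).

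Hnrnpd exon 2 (57 nt, chr5:99976534-99976590) is shown because it separates the known hnRNP D isoforms before the RRMs. It held neither TATGG nor TACGG.

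Hnrnpd exon 2: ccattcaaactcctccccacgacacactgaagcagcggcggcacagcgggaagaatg

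Both Hnrnpdl and Hnrnpd had an alternative exon after the stop codon, in the 3′ UTR. With the 105 nt exon of Hnrnpdl (chr5:100035635-100035739), the distance from the stop codon to the last exon junction was 126 nt in Hnrnpdl-201, which is annotated as an NMD transcript, against 21 nt in Hnrnpdl-202, which lacks the exon. In Hnrnpd the exon had 2 forms that share their upstream splice site, of 107 nt (chr5:99962098-99962204) and 71 nt (chr5:99962134-99962204). They placed the stop codon 137 nt and 101 nt before the last junction, in Hnrnpd-208 and Hnrnpd-209, both annotated as NMD transcripts, against 30 nt in Hnrnpd-211. The poison exons of Hnrnpdl and Hnrnpd were identical at 73 of 103 aligned bases (70.9%), including their first 20 bases. No such event was listed for Hnrnpab, whose last junction lies before its stop codon in all 3 transcripts.

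Reads counted on genes ranged from 16052529 to 17913064 per library, and junction counts from 6760349 to 7939931. Neuronal marker genes summed to 4310 to 4622 CPM (counts scaled to library size) in controls and to 2362 to 3016 CPM in the KD-labelled libraries, and all 5 markers were lower. All 5 microglial markers were higher, with sums of 413 to 510 and 991 to 1132 CPM. No marker of either list was at 0. In bulk tissue, fewer cells of a type and less RNA per cell cannot be told apart. Sums of 3 choroid plexus markers ranged from 377 to 4227 CPM in controls and from 14.8 to 4743 CPM in the KD-labelled libraries, so that the groups overlapped. The part of these shifts in the values below was not tested.

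The gene-level counts of all 3 genes overlapped between the groups. Hnrnpdl, whose long isoform was the shRNA target, was counted 2862, 3120 and 2689 times in control replicates 1 to 3 and 3939, 2680 and 2904 times in L-DL KD replicates 1 to 3. After TMM scaling this was 176, 184 and 171 CPM in controls and 217, 150 and 173 CPM in the KD-labelled libraries. The labelled group thus held both the highest and the lowest Hnrnpdl library. The log2 fold change was 0.03 (SE 0.12, edgeR quasi-likelihood adjusted p = 0.898), and the interval of 2 SE ran from -0.22 to 0.28. Gene counts do not separate the long from the short isoform, and no listed event of Hnrnpdl lay in its first exons, so L-DL mRNA alone was not measured here. The gene-level count bore out neither the KD nor the -/- label, and a change of the long isoform alone could not be seen in it. The study assessed its knockdown on protein, by immunoblots of L-DL in injected hippocampus and in shRNA-treated cultured cells. Protein was not measured here.

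Hnrnpd had 121, 120 and 125 CPM in controls and 125, 87.9 and 111 CPM in the KD-labelled libraries. L-DL KD replicate 2 was the lowest for Hnrnpd, as it was for Hnrnpdl. The log2 fold change of -0.18 (SE 0.12, 2 SE interval -0.42 to 0.06, edgeR adjusted p = 0.288) did not pass the test. Without L-DL KD replicate 1 it was -0.29, with an edgeR adjusted p of 0.0467. Without L-DL KD replicate 2 it was -0.045 (edgeR adjusted p = 0.727). Hnrnpab had 91.5, 91.0 and 79.4 CPM in controls and 92.9, 94.3 and 70.6 CPM in the KD-labelled libraries, where replicate 3 was the lowest. Its log2 fold change was -0.02 (SE 0.12, 2 SE interval -0.26 to 0.22, edgeR adjusted p = 0.906). The sign of this value turned with library size scaling, at 0.01. In all, 0 of the 3 genes passed the test, whereas 5379 of 17621 genes tested (30.5%) did. At an unadjusted p under 0.05, which at least those 5379 genes had, the count was also 0. DESeq2 called 5525 of the 17621 genes tested and none of the 3. The groups did not overlap for 47.2% of genes tested and for 0 of these 3.

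**Figure D2:**
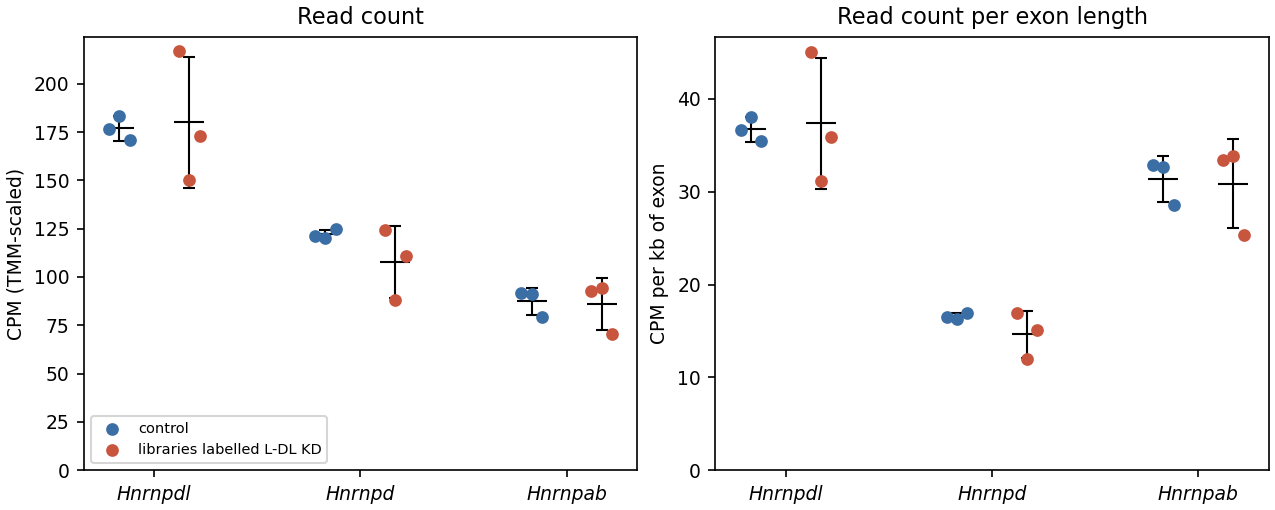
Level of Hnrnpdl, Hnrnpd and Hnrnpab in each library, as TMM-scaled CPM on the left and as CPM per kb of annotated exon on the right. Points are libraries, 3 per group, and lines give the mean and SD. The libraries labelled L-DL KD spread more widely than the controls for each gene, with Hnrnpdl between 150 and 217 CPM.

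The 3 genes were well expressed, with mean CPM at the 93.9th, 88.7th and 83.7th percentile of the genes tested for Hnrnpdl, Hnrnpd and Hnrnpab. The coefficient of variation was 3.63% in controls and 18.8% in the KD-labelled libraries for Hnrnpdl. It was 1.98% and 17.2% for Hnrnpd, and 7.87% and 15.5% for Hnrnpab. Per kb of annotated exon, Hnrnpdl had 36.7 ± 1.33 CPM in controls (SD, n = 3) and 37.4 ± 7.04 in the KD-labelled libraries. Hnrnpab followed with 31.4 ± 2.47 and 30.9 ± 4.79 CPM per kb, and Hnrnpd with 16.6 ± 0.329 and 14.6 ± 2.52. Hnrnpdl lay above Hnrnpd in 6 of 6 libraries, by 2.09 to 2.66 fold. Hnrnpdl lay above Hnrnpab in 5 of 6, with ratios from 0.920 to 1.42, so that this order was within the spread of the libraries.

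The order depended on the measure. Junction reads at exon 6 of Hnrnpdl, exon 6 of Hnrnpd and exon 7 of Hnrnpab were also scaled by form length and by the library's junction total (junction CPM per kb). On this scale Hnrnpab came first with 521 to 649 over the 6 libraries, followed by Hnrnpdl with 231 to 354 and Hnrnpd with 119 to 207.9. The ratio of Hnrnpdl to Hnrnpab was 0.407 to 0.621, and that of Hnrnpdl to Hnrnpd was 1.36 to 1.94. Hnrnpd has a last exon of 5399 nt in Hnrnpd-211, which enters the exon length but not the junction measure.

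Inclusion was given as percent spliced in (PSI, here from 0 to 1), which is the share of the including form once junction counts are scaled by effective form length. The splicing table gives 3 values per group without replicate numbers, and they are given here in the order listed. Of the 8 events, 7 had enough counts of both forms for the test and 0 passed, whereas 48 of 18829 events tested (0.255%) did. With limma 0 of all events passed, and 2377 of 18829 (12.6%) had an unadjusted p under 0.05. In edgeR 1 of the 7 had an unadjusted p under 0.05, as had 2496 of 18829 events (13.3%). The groups lay apart for 3 of the 7, against 18.4% of all events tested.

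**Figure D3:**
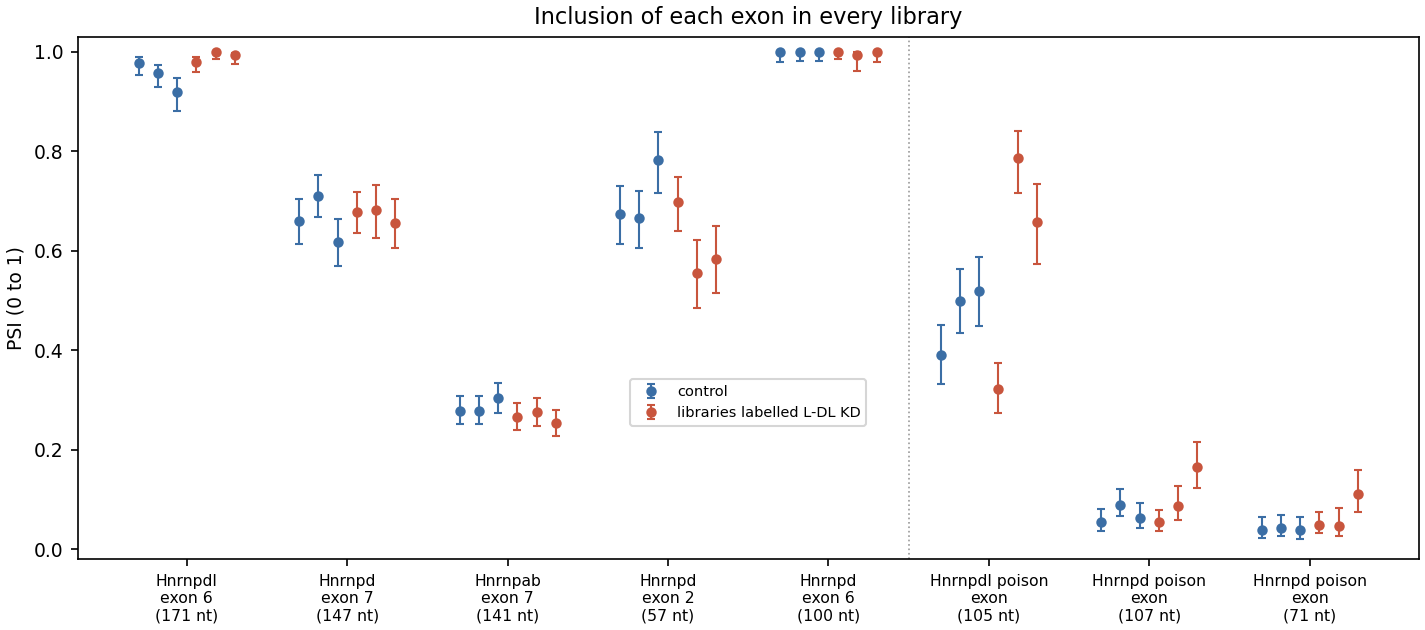
PSI of the 8 skipped exons of Hnrnpdl, Hnrnpd and Hnrnpab in each library, with the 5 coding exons on the left of the dotted line and the exons of the 3′ UTR on the right. Points are libraries in the order listed and bars are 95% Wilson intervals of the junction counts. PSI of the Hnrnpdl poison exon ranged from 0.322 to 0.786 among the KD-labelled libraries.

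The tail exon was used to a different degree in each gene, and this order held in all 6 libraries. Hnrnpdl exon 6 was nearly always included, with a PSI of 0.977, 0.956 and 0.919 in controls and of 0.978, 1 and 0.993 in the KD-labelled libraries. Its skipping junction had 7, 14 and 21 counts in controls and 9, 0 and 2 counts in the KD-labelled libraries, beside 479 to 814 inclusion counts. The 0 came from 546 junction counts, which allows a share of up to 0.549%. PSI was thus higher in each KD-labelled library than in any control, although the nearest values were 0.978 and 0.977. The mean PSI was 0.951 ± 0.0290 and 0.990 ± 0.0110 (SD, n = 3, exact two-sided permutation p = 0.1, the smallest that 3 against 3 allows). The log2 odds ratio was 2.13 (SE 0.72), with an unadjusted p of 0.0122 and an adjusted p of 0.249 from edgeR. It was 3.63 without the first listed KD-labelled library. Without the third listed control the difference in PSI was 0.024 in place of 0.040, with an unadjusted p of 0.0674 in edgeR.

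Hnrnpd exon 7 was included at a PSI of 0.661, 0.711 and 0.618 in controls and 0.677, 0.681 and 0.656 in the KD-labelled libraries, which lay inside the control range. The log2 odds ratio was 0.05, with a 2 SE interval from -0.48 to 0.57 (edgeR adjusted p = 0.969). It was 0.20 without the second listed control and -0.098 without the third. Hnrnpab exon 7 was mostly skipped, with a PSI of 0.279, 0.279 and 0.303 in controls and 0.266, 0.275 and 0.254 in the KD-labelled libraries. All of the latter lay below the controls, by a mean of 0.287 ± 0.0140 against 0.265 ± 0.0108 (SD, n = 3, exact permutation p = 0.1). This gap of -0.022 did not pass the inclusion test (log2 odds ratio -0.16, 2 SE interval -0.60 to 0.28, edgeR adjusted p = 0.836), and it was -0.014 without the third listed control. The controls thus ran from 0.919 to 0.977 in Hnrnpdl, from 0.618 to 0.711 in Hnrnpd and from 0.279 to 0.303 in Hnrnpab.

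Hnrnpd exon 2, which sets the start of the protein apart between isoforms, had a PSI of 0.675, 0.665 and 0.783 in controls and of 0.697, 0.555 and 0.584 in the KD-labelled libraries. The first library of the latter group lay among the controls and the others below them. The difference of the means did not pass a test (0.708 ± 0.0656 and 0.612 ± 0.0753, SD, n = 3, exact permutation p = 0.3), with a log2 odds ratio of -0.59 (2 SE interval -1.34 to 0.17, edgeR adjusted p = 0.553). Without the third listed control the log2 odds ratio was -0.34 and the difference in PSI -0.058 in place of -0.096. Without the first listed KD-labelled library these values were -0.86 and -0.138. Hnrnpd exon 6 (100 nt), which would shift the frame if skipped, was included in every junction read of 5 libraries and had 1 skipping count among 234 in a KD-labelled library. At this depth a count of 0 allows skipping reads to be up to 0.737% to 1.003% of the junction counts in those 5 libraries. These limits are not scaled by form length. It was not tested.

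The Hnrnpdl poison exon was the most variable exon of the subfamily. It was included at a PSI of 0.390, 0.499 and 0.519 in controls and of 0.322, 0.786 and 0.658 in the KD-labelled libraries. Inclusion counts were 127, 154 and 141 in controls and 129, 199 and 124 in the KD-labelled libraries. Skipping counts were 117, 91 and 77 in controls and 160, 32 and 38 in the KD-labelled libraries. The first library of the L-DL KD group thus had the lowest PSI of all 6, and the other two had the highest. The 95% Wilson intervals of these 3 libraries, 0.274 to 0.374, 0.716 to 0.841 and 0.572 to 0.734, did not meet the first against the others. They cover counting error only. The mean PSI of 0.469 ± 0.0694 in controls and 0.588 ± 0.239 in the KD-labelled libraries did not differ beyond this spread (SD, n = 3, exact permutation p = 0.5). The log2 odds ratio was 0.67 (2 SE interval -0.56 to 1.90, edgeR adjusted p = 0.717). Without the first listed L-DL KD library the log2 odds ratio was 1.59 and the difference in PSI 0.252, with an unadjusted p of 0.00421 and an adjusted p of 0.210 in edgeR. Without the second it was 0.02, without the third 0.43 and without the first listed control 0.44.

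The skipping form varied more between libraries than the including form. In junction CPM per kb, the including form ranged from 64.6 to 99.1 over the 6 libraries, 1.53 fold. The skipping form, which corresponds to the transcript without the NMD annotation, ranged 5.03 fold, from 27.05 to 136. It was 113, 86.1 and 76.4 in controls and 136, 27.05 and 35.7 in the KD-labelled libraries.

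**Figure D4:**
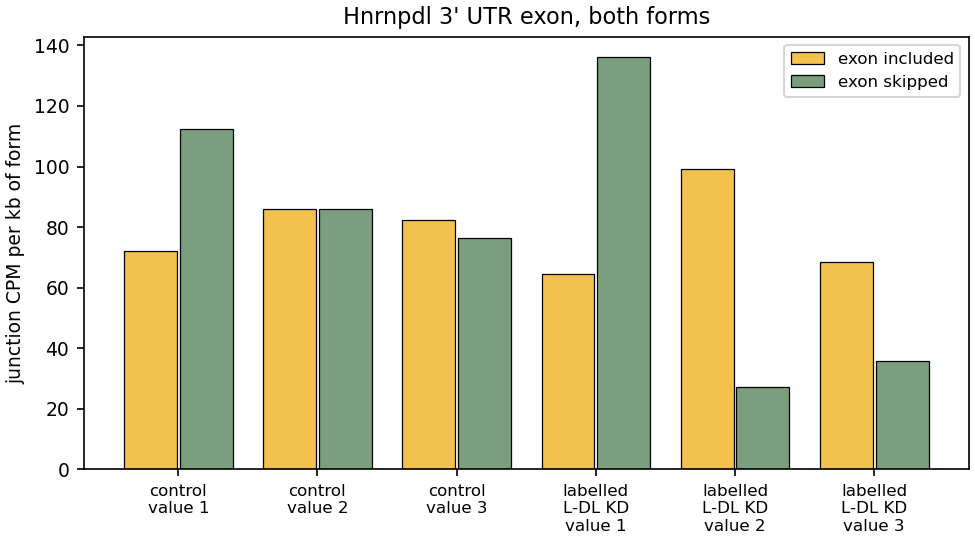
Junction reads that include or skip the 105 nt poison exon of Hnrnpdl, in junction CPM per kb of effective form length, for the 6 libraries in the order listed. Yellow bars are the including form (64.6 to 99.1) and green bars the skipping form, which was highest at 136 and lowest at 27.05 and 35.7 within the KD-labelled libraries.

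A spread of this size between libraries of 1 group was rare. Among 1891 events with at least 100 counts in each library and a mean PSI of 0.2 to 0.8, the median SD in the L-DL KD group was 0.0386, and 1 event (0.0529%), this exon itself, had an SD of 0.239 or more. In controls its SD of 0.0694 was reached by 209 of the 1891 events (11.1%). This comparison was chosen after the values had been seen and is a description.

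The junction level of Hnrnpdl at exon 6 was 287, 303 and 259 junction CPM per kb in controls and 354, 231 and 264 in the KD-labelled libraries. The library at 354 had the lowest PSI of the poison exon, and that at 231 the highest. Transcripts that skip the poison exon are part of the level at exon 6, so the level and the PSI are not independent, and no relation between them was tested.

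The Hnrnpd poison exon was rarely included. The 107 nt form had a PSI of 0.0548, 0.0901 and 0.0637 in controls and of 0.0546, 0.0877 and 0.165 in the KD-labelled libraries, with 23 to 46 inclusion counts per library. The third library of the L-DL KD group stood above the rest, and the others lay within the control range or at its edge (log2 odds ratio 0.50, 2 SE interval -0.46 to 1.45, edgeR adjusted p = 0.734). Without the third library the log2 odds ratio was -0.01 and the difference in PSI 0.0016 in place of 0.033, and without the first the log2 odds ratio was 0.93. The 71 nt form had a PSI of 0.0394, 0.0430 and 0.0381 in controls and of 0.0497, 0.0469 and 0.111 in the KD-labelled libraries. Here the groups lay apart (exact permutation p = 0.1, n = 3), with a log2 odds ratio of 0.74 (2 SE interval -0.20 to 1.68, edgeR adjusted p = 0.544). Without the third KD-labelled library the log2 odds ratio was 0.28 and the difference in PSI 0.0081 in place of 0.029. Both forms are set against the same skipping reads, 136 in the third library of the L-DL KD group and 152 to 273 elsewhere. They also share their upstream splice site, and a read of that junction alone does not tell them apart. The forms are thus not independent. Every library included the Hnrnpdl poison exon more than that of Hnrnpd, with 0.322 as the lowest value of the former and 0.165 as the highest of the latter.

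Genes that resemble the subfamily or act with it were taken from 4 lists. Among 8 further hnRNPs and related proteins with a pair of RRMs, 0 were higher and 2 were lower at an edgeR adjusted p under 0.05, against 15.6% and 15.0% of all genes tested. Their median log2 fold change was -0.06, and that of all genes tested was 0.01. Msi2, a Musashi translational regulator, fell from 116, 105 and 134 CPM in controls to 98.5, 83.4 and 90.3 CPM (log2 fold change -0.38, SE 0.11, adjusted p = 0.0267). Hnrnpa0, which binds AU-rich elements of inflammatory mRNAs, fell from 129, 131 and 120 to 111, 86.0 and 95.1 CPM (-0.38, SE 0.10, adjusted p = 0.0224). The count of 2 went down to 0 or 1 when any of 5 of the 6 libraries was left out, all but L-DL KD replicate 1. Those 5 fits called 3498 to 4369 genes in all, against 5379 with every library and 6477 without L-DL KD replicate 1.

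Of 12 proteins that bind AU-rich or U-rich elements, as hnRNP D does, 3 were higher, 3 were lower and 6 did not pass, beside 15.6% of all genes tested that were higher and 15.0% that were lower. The median log2 fold change was 0.07. Zfp36, which encodes tristetraprolin, a factor that promotes mRNA decay, rose from 17.4, 16.4 and 12.3 CPM to 23.2, 36.6 and 52.7 CPM (log2 fold change 1.28, SE 0.28, adjusted p = 0.0109). Its relative Zfp36l1 rose from 24.5, 25.4 and 21.8 to 50.3, 50.7 and 51.9 CPM (1.09, SE 0.09, adjusted p = 0.000194). The neuronal Hu genes fell, Elavl2 from 56.5, 58.1 and 70.7 to 28.1, 25.2 and 23.2 CPM (-1.28, SE 0.12, adjusted p = 0.00029). Elavl4 fell from 40.9, 39.5 and 46.0 to 16.9, 22.4 and 17.5 CPM (-1.16, SE 0.13, adjusted p = 0.00066). All edgeR calls in this list include Zfp36l2 (0.57) and Elavl3 (-0.26), which are named because they complete the count. The ubiquitous Hu gene Elavl1 did not pass (-0.10, adjusted p = 0.435). Elavl2 also served as a CA3 marker, and the neuronal and microglial marker sums above moved in the same directions as the Hu and Zfp36 genes. Their part in these values was not tested.

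Of 16 factors of NMD and of the exon junction complex, 2 were higher and 2 lower, and the median log2 fold change was -0.03. Of all genes tested, 30.5% were called, so that this count was not above the background. Upf3a, a modulator of NMD, rose from 39.4, 37.5 and 38.4 to 52.4, 47.5 and 56.5 CPM (log2 fold change 0.44, SE 0.08, edgeR adjusted p = 0.00636). Eif4a3, the RNA helicase of the exon junction complex, rose from 52.5, 53.2 and 50.7 to 64.7, 65.9 and 69.3 CPM (0.35, SE 0.07, adjusted p = 0.00556). Upf2, which links UPF1 to the exon junction complex, fell from 74.3, 77.5 and 73.9 to 55.4, 67.5 and 58.8 CPM (-0.31, SE 0.09, adjusted p = 0.0261). Rnps1, a splicing activator bound to that complex, fell from 116, 117 and 109 to 96.4, 95.9 and 98.4 CPM (-0.23, SE 0.06, adjusted p = 0.0251). The other 12 did not pass. The count of called members was 2 without control replicate 1 and also without control replicate 2. Over all genes the calls then fell from 5379 of 17621 to 3524 of 17345 and 3541 of 17320.

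Of 8 genes for nuclear import and arginine methylation of hnRNPs, 1 was higher, 1 was lower and 6 did not pass, a count that was also not above the 30.5% of all genes tested. The median log2 fold change was 0.12. Prmt1, the main arginine methyltransferase, rose from 60.4, 67.2 and 62.2 to 76.3, 81.3 and 87.9 CPM (log2 fold change 0.37, SE 0.08, edgeR adjusted p = 0.00996). Carm1, which methylates other arginine sites, fell from 58.3, 61.0 and 54.2 to 46.7, 36.2 and 41.7 CPM (-0.48, SE 0.10, adjusted p = 0.0106). Tnpo1, the import receptor of many hnRNPs, did not pass (0.12, adjusted p = 0.346).

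**Figure D5:**
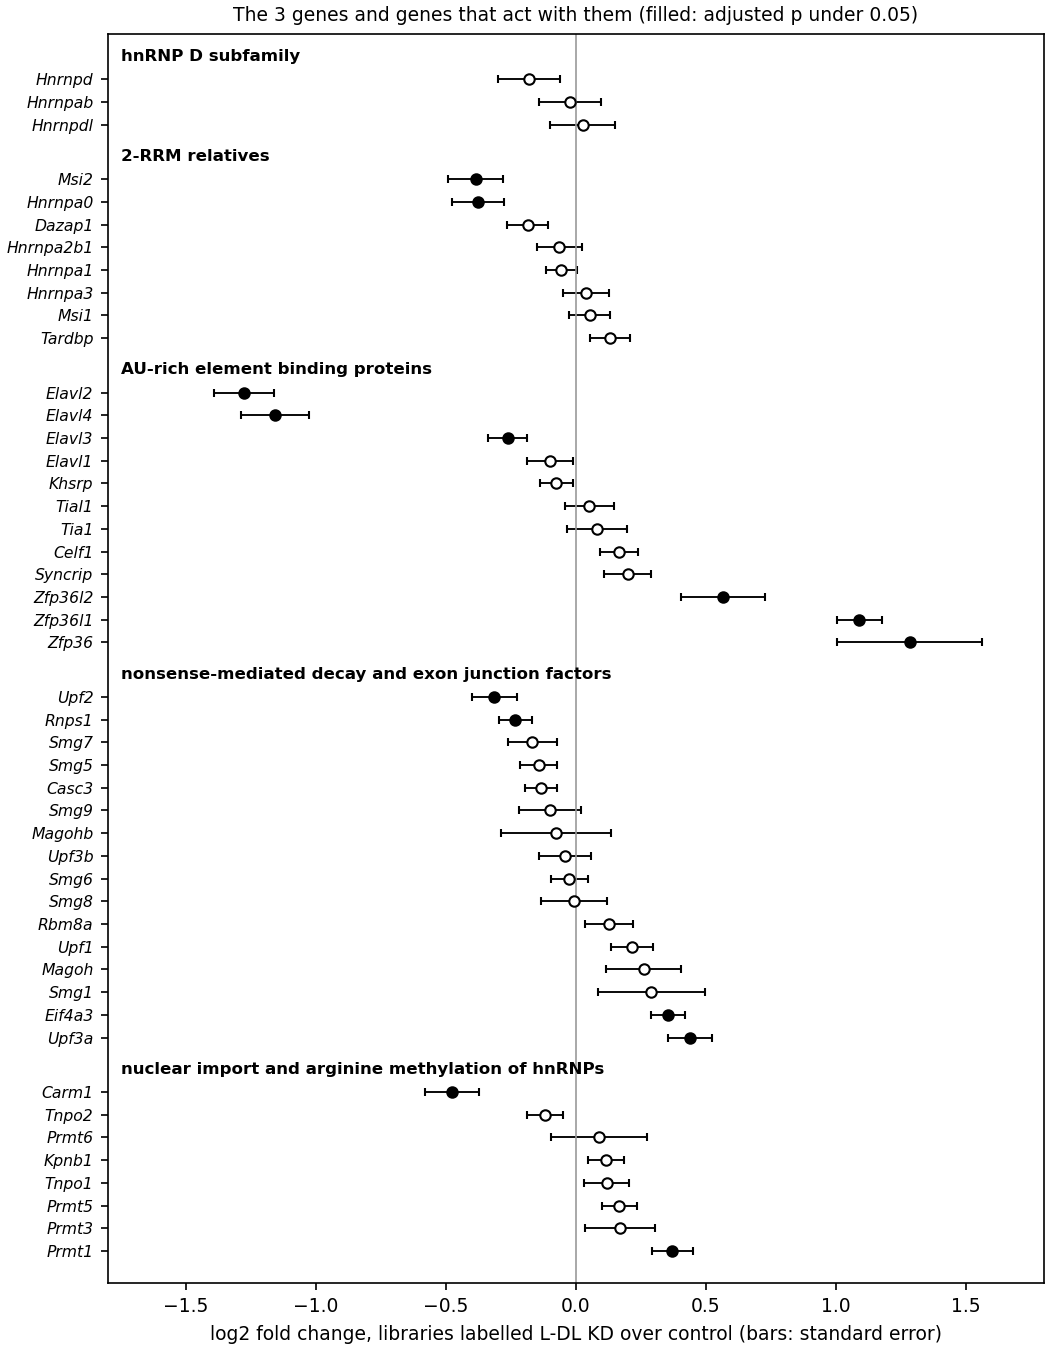
Log2 fold change of the KD-labelled libraries over controls for Hnrnpdl, Hnrnpd, Hnrnpab and the genes of the 4 lists, with bars for the standard error of the edgeR fit (3 libraries per group). Filled points have an adjusted p under 0.05. The 3 subfamily genes lie between -0.18 and 0.03, while Zfp36 and Elavl2 lie at 1.28 and -1.28.

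Across the 6 libraries, the genes whose log2 CPM followed the subfamily most closely were sought among 11019 genes with a mean of at least 10 CPM. For Hnrnpdl these were Tbc1d16 (Pearson's r = 0.97), Zfp414 (0.96) and Tmem242 (0.95). For Hnrnpd they were Anp32e (0.99), Gabra5 (0.98) and Aar2 (0.98), and for Hnrnpab Lmo4 (0.96), Tbc1d14 (0.96) and Tmem256 (0.96). Within the subfamily r was 0.74 between Hnrnpdl and Hnrnpd, 0.14 between Hnrnpdl and Hnrnpab and -0.15 between Hnrnpd and Hnrnpab. The points share library depth and composition, and these values are descriptions.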

How the data were processed

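Hippocampal RNA was measured by RNA sequencing in 6 libraries, 3 per group. Raw read counts per Ensembl gene were deposited by the authors without normalization. The submitters' processing notes name HISAT2 (version 2.1.0), HTSeq (version 0.6.1), Bowtie (version 1.1.2) and mm10. Whether counting used strand, and how reads shared with near-identical copies were treated, is not given in the sources used here. The authors also deposited the rMATS table of junction counts, form lengths, PSI, p-values and FDR. Its comparison columns were not used, and PSI was recomputed from the junction counts. Its first sample was taken as L-DL KD, because the methods define the PSI difference as L-DL KD minus control. As a check, group differences in junction level and gene count had a Spearman rho of 0.937 across 5175 genes, and 197 of 198 genes changed at least 2-fold had the same sign.

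Genes that reached 10 counts in 3 or more libraries were tested with edgeR (version 4.0.16, TMM scaling, quasi-likelihood test). For events, a mean of 20 counts per library and of 1 count of either form was required. They were tested with edgeR on 12 columns, the including and the skipping counts of every library, with a library effect and a form by group effect. Benjamini-Hochberg adjusted p-values under 0.05, over all genes or events, were called. Groups of 3 were also compared by two-sided exact permutation tests. Alternatives were DESeq2 (version 1.42.0), library size scaling, no filter, a replicate block, limma (version 3.58.1) for the log2 ratio of forms with a pseudocount of 0.5, coverage minimums of 10 and 50 counts, PSI without form lengths and leaving out each library. Both models were tested on simulated data, where the event model missed most of the changed events and the gene model missed few genes. An event that did not pass may thus still have changed. R (version 4.3.3) and Python (version 3.11.15) were used. Wilson intervals (95%), converted to PSI by the form lengths, and the limit for a count of 0 (3 counts) cover counting error only. Exons were aligned with Biopython (version 1.88, match 2, mismatch -1, gap opening -4, gap extension -0.5).

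All events of the 3 genes are described. At most 4 genes of a list are named, the 2 largest rises and the 2 largest falls among those called, and for each member the 3 genes of highest r. Elavl1, Elavl3, Zfp36l2, Tnpo1 and Smg1 were named after their values were seen. The members and lists were chosen with earlier results of these data known. The sequences of shRNAs and proteins were not used here.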

Additional observations from a re-analysis of the deposited data

How the results depend on the processing

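None of the 3 genes changed sides of the threshold under DESeq2, library size scaling, no filter on low counts or the replicate block, and the sign turned only for Hnrnpab with library size scaling (0.00795). Leaving out 1 library at a time gave log2 fold changes from -0.13 to 0.15 for Hnrnpdl, from -0.29 to -0.045 for Hnrnpd and from -0.089 to 0.10 for Hnrnpab. Hnrnpd passed the test without L-DL KD replicate 1 (adjusted p = 0.0467), where 6477 genes were called in all, and Hnrnpdl was then at -0.13. Called members ranged from 0 to 2 for the relatives with a pair of RRMs, from 4 to 8 for AU-rich element binding proteins and from 2 to 6 for NMD and exon junction factors, and stayed at 2 for import and methylation genes. Over all genes the same fits called 3498 to 6477, against 5379 with every library. Leaving out a library also changed the number of genes tested, and the cause of the shifts was not tested. The subfamily events called were 0 under every alternative, limma and both coverage minimums included. These fits called few events anywhere, from 0 of 18829 with limma to 52 of 18814 without the first listed KD-labelled library. The 0 thus says little about the subfamily.

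Same-numbered libraries of the 2 groups had correlations of 0.05, 0.13 and -0.11 between their deviations from the group means, so the numbers did not pair them. With the replicate block, 4635 genes were called in place of 5379, and Hnrnpdl, Hnrnpd and Hnrnpab had log2 fold changes of 0.01, -0.19 and -0.03. No paired analysis was possible for the events because the splicing table carries no replicate numbers. Depth limits events with a rare form, such as the Hnrnpd poison exon with 11 to 46 inclusion counts per library, Hnrnpdl exon 6 with 0 to 21 skipping counts and Hnrnpd exon 6 with 0 or 1.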

Other observations

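Smg1, the kinase that phosphorylates UPF1 in NMD, had 215, 237 and 233 CPM in control replicates 1 to 3 and 182, 349 and 307 CPM in L-DL KD replicates 1 to 3, and was named after its values were seen. As for the Hnrnpdl poison exon, the L-DL KD group held both the lowest library and the highest ones. How many of all genes have such a pattern was not counted. Its log2 fold change of 0.29 (SE 0.21) did not pass the test (edgeR adjusted p = 0.326). Since the splicing table carries no replicate numbers, the libraries of both measurements were not matched.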
